A study of Mus musculus and Rattus norvegicus with 35 samples.

Results

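The NMDA receptor subunit genes are 7 of the 24601 mouse genes and 22409 rat genes measured in this series. They were taken by symbol: Grin1, Grin2a, Grin2b, Grin2c, Grin2d, Grin3a and Grin3b. Their circular RNAs (circRNAs, closed molecules in which a downstream exon end is spliced back to an upstream exon start) were taken by host symbol, which gave 24 of 28482 mouse and 23 of 18075 rat circRNAs. All 7 genes are in both tables.

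The series profiled linear and circular RNA in 34 libraries with deposited values. The mouse libraries were from C57BL/6 animals without any stated mutation. Hippocampus was sampled at E18, P1, P10 and P30 (2 libraries each). A hippocampal synaptosome fraction, its homogenate, dissected CA1 neuropil and CA1 somata came from animals of 4 weeks (1 library each). Adult tissues (brain, heart, liver, lung, testis) were represented by 3 libraries apiece, from mice of 14 weeks (replicate 1) or 20 weeks (replicates 2 and 3). A further 14-week brain library was selected with oligo(dT) beads, whereas all others were depleted of rRNA. The rat libraries were from Sprague Dawley animals: CA1 neuropil and somata at 4 weeks (1 library each), and dissociated hippocampal neurons at DIV 28 that received 40 µM bicuculline for 12 h or water (2 libraries each). Bicuculline blocks GABA-A receptors and so disinhibits cultured networks. None of the libraries came from sorted cells, so each value is an average over cell types, and fewer cells of a type and less RNA per cell cannot be told apart. The labels do not say whether replicates came from separate animals or cultures, so p-values measure only the spread between these libraries.

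NMDA receptors are glutamate-gated, calcium-permeable channels of excitatory synapses that need a co-agonist, glycine or D-serine, and are blocked by magnesium at rest. Each is a tetramer of obligatory GluN1 subunits, encoded by Grin1, with GluN2 subunits (Grin2a to Grin2d) or GluN3 subunits (Grin3a and Grin3b). The GluN2 subunit sets the decay time and magnesium block of the channel. In the forebrain, GluN2B is known as the dominant form before birth, with GluN2A joining it after birth.

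Depth and sample identity were as follows. The rRNA-depleted libraries held between 1231 and 43523 back-splice reads, and 11728 to 15605 genes reached 1 TPM. The summed TPM of the neuron markers was 342 to 383 at E18 and 3080 to 3492 at P30, and that of the progenitor markers 245 to 306 at E18 and 11.4 to 12.0 at P30; their part in the differences between stages was not tested. Of the 5 neuron markers, 1 was at 0 TPM in every brain-derived mouse library. Cerebellar granule cell markers (Gabra6 and Cbln3) summed to 234 to 259 TPM in the 3 rRNA-depleted whole-brain libraries and to at most 1.15 TPM in all hippocampal and CA1 libraries. The brain libraries of 20 weeks had higher values of marker genes of other organs than that of 14 weeks. Their heart markers summed to 23.8 and 24.0 TPM, against 3.03 TPM at 14 weeks. The source of these values was not tested.

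The hippocampal series asks how subunit expression changes with age. Between E18 and P30 the transcripts of Grin1, Grin2a, Grin2b and Grin2c rose, Grin2a and Grin2c by the largest factors, while Grin3a was highest at P10. Values are TPM, a measure normalised for transcript length and library depth. Proportions between genes can still differ with the way RNA was selected. Differences are log2(TPM + 1) with a standard error, tested by limma over all 15444 genes that reached 1 TPM in at least 2 of the 8 libraries and adjusted by the Benjamini-Hochberg method; the added 1 understates changes of low genes.

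Grin1, the subunit every receptor contains, had 18.0 and 16.9 TPM at E18, 23.4 and 20.9 at P1, 44.4 and 72.0 at P10, and 125 and 130 at P30. No library of a later stage was below one of an earlier stage. P30 exceeded E18 by 2.80 ± 0.21 (log2, SE), with an adjusted p of 4.56e-06.

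Grin2a, which encodes the GluN2A subunit of fast-decaying receptors, had 9.67 and 8.25 TPM at E18, 10.5 and 17.1 at P1, 37.6 and 53.3 at P10, and 181 and 178 at P30. The stages did not overlap. P30 exceeded E18 by 4.18 ± 0.24 (adjusted p = 9.32e-07), which is 18.2-fold on this scale.

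Grin2b, which encodes the slowly decaying GluN2B subunit, had 59.8 and 62.8 TPM at E18, 49.0 and 85.6 at P1, 89.4 and 110 at P10, and 180 and 174 at P30. The E18 values lay between the 2 values of P1, and the other stages were apart. P30 exceeded E18 by 1.51 ± 0.23 (adjusted p = 0.000411), or 2.85-fold. The difference between the changes of Grin2a and Grin2b was not tested.

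Grin2c, whose GluN2C subunit is known for weak magnesium block and for expression in cerebellar granule cells and astrocytes, had 0.802 and 0.804 TPM at E18, 0.240 and 0.338 at P1, 4.42 and 4.76 at P10, and 18.6 and 15.8 at P30. It was thus low through P1 and higher at P10 and P30. P30 exceeded E18 by 3.33 ± 0.18 (adjusted p = 7.89e-07). Grin2c passed the filter only through P10 and P30, so this difference and that of P10 against P1 could only come out higher. Astrocyte markers (Gfap, Aqp4, Aldh1l1 and Gja1) summed to 143 and 180 TPM at E18, 235 and 280 at P1, 602 and 602 at P10, and 588 and 596 at P30; their part in the Grin2c change was not tested.

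Grin2d, the GluN2D gene, known for expression in interneurons and in early development, stayed low, with 1.36 and 0.481 TPM at E18, 1.68 and 0.957 at P1, 2.69 and 3.05 at P10, and 2.50 and 1.68 at P30. P30 passed the test against E18 narrowly (0.71 ± 0.27, adjusted p = 0.0496). This call is not firm, because it was lost under 9 of 13 alternatives, with adjusted p up to 0.325 without E18 replicate 2.

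Grin3a encodes GluN3A, a subunit that lowers calcium permeability and is known to peak in early postnatal life. It had 11.2 and 18.5 TPM at E18, 21.1 and 31.7 at P1, 35.6 and 37.6 at P10, and 20.2 and 19.1 at P30. The highest values were at P10, and those of P30 lay just above E18. P30 fell below P10 by 0.87 on the log2 scale (−0.87 ± 0.25, adjusted p = 0.0274), and P30 against E18 did not pass (0.42 ± 0.25, adjusted p = 0.176), although it did without E18 replicate 2 (0.76, adjusted p = 0.0369). Without any one of the P10 or P30 libraries the fall missed the threshold (adjusted p from 0.091 to 0.123). Grin3b, encoding GluN3B, which is best known from motor neurons, was at 0.114 to 0.444 TPM in all 8 libraries, below the level tested.

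Between P30 and E18, 5 of the 6 members tested were higher and none was lower, beside 29.5% of all genes higher and 26.8% lower. Grin2c, 1 of the 5, could only come out higher in this comparison. From E18 to P1 none of the 6 passed, where 1.2% of all genes were higher and 0.524% lower; Grin2a, Grin2c and Grin3a had an unadjusted p under 0.05. From P1 to P10 there were 3 higher members, Grin1 (1.32 ± 0.21, adjusted p = 0.00163), Grin2a (1.67 ± 0.24, 0.000929) and Grin2c (2.12 ± 0.18, 6.59e-05), beside 17.2% of all genes higher and 18% lower. Again, Grin2c could only come out higher. Grin2b and Grin2d just missed the threshold there (adjusted p = 0.0679 and 0.0584); without P1 replicate 2, the higher of the P1 pair, Grin2b passed with an adjusted p of 0.0047, and Grin2d passed under 5 of 13 alternatives. From P10 to P30 there were 4 higher members, Grin1, Grin2a, Grin2b and Grin2c, and 1 lower, Grin3a, beside 17% of all genes higher and 12.5% lower. The Grin2b step from P10 to P30 (0.83 ± 0.23, adjusted p = 0.0244) missed the threshold without P10 replicate 1 (0.149) or without either P30 library (0.0935 and 0.103).

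**Figure D1:**
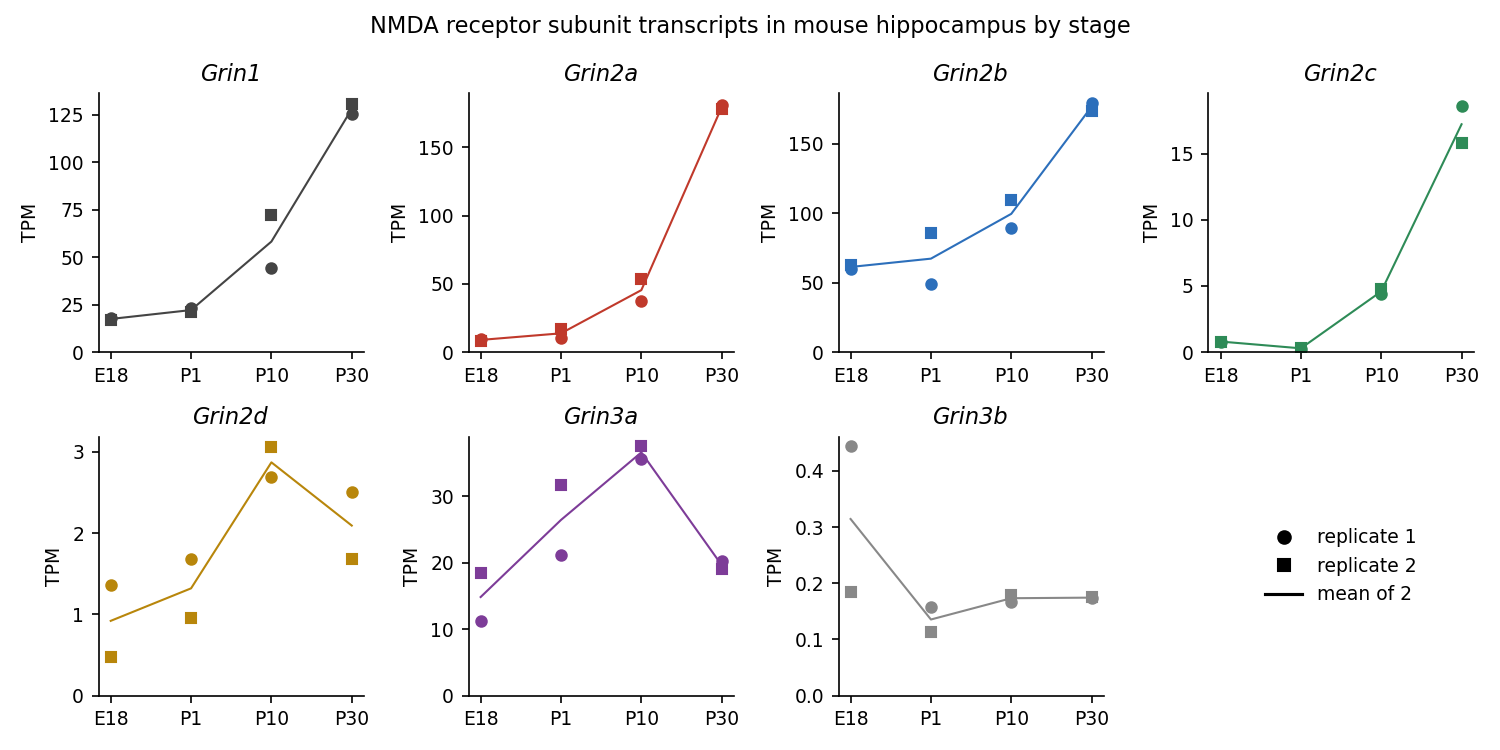
TPM of the 7 subunit genes (1 panel each, y axes starting at 0 and scaled per gene) in mouse hippocampus at E18, P1, P10 and P30; points are libraries and lines join the means of 2. Grin1, Grin2a, Grin2b and Grin2c were highest at P30 and Grin3a at P10 (35.6 and 37.6 TPM).

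The composition of the GluN2 pool is a description, without a test. Grin2a made up 13.5% and 11.4% of the summed TPM of the 4 GluN2 genes at E18, 17.1% and 16.4% at P1, 28.0% and 31.2% at P10, and 47.4% and 48.2% at P30. Grin2b made up 83.5% and 86.8% at E18, 79.8% and 82.3% at P1, 66.7% and 64.2% at P10, and 47.1% and 47.1% at P30. The pool thus held mostly Grin2b before birth and about equal amounts of both at P30, where Grin2a was 50.2% and 50.6% of Grin2a plus Grin2b. Grin2c took 4.88% and 4.28% at P30, and Grin2d at most 2.74% in any of the 8 libraries.

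The summed GluN2 level was 71.6 and 72.4 TPM at E18 and 382 and 369 TPM at P30. Grin1 kept a similar proportion to that sum: 0.252 and 0.233 TPM of Grin1 per TPM of GluN2 at E18, 0.381 and 0.201 at P1, 0.331 and 0.422 at P10, and 0.329 and 0.353 at P30. The range at P1 alone covered most of the range over stages. The GluN3 genes, nearly all Grin3a, came to 16.3% and 25.7% of the GluN2 sum at E18, 34.7% and 30.6% at P1, 26.7% and 22.1% at P10, and 5.34% and 5.21% at P30. P30 was lower than all earlier libraries in this proportion.

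**Figure D2:**
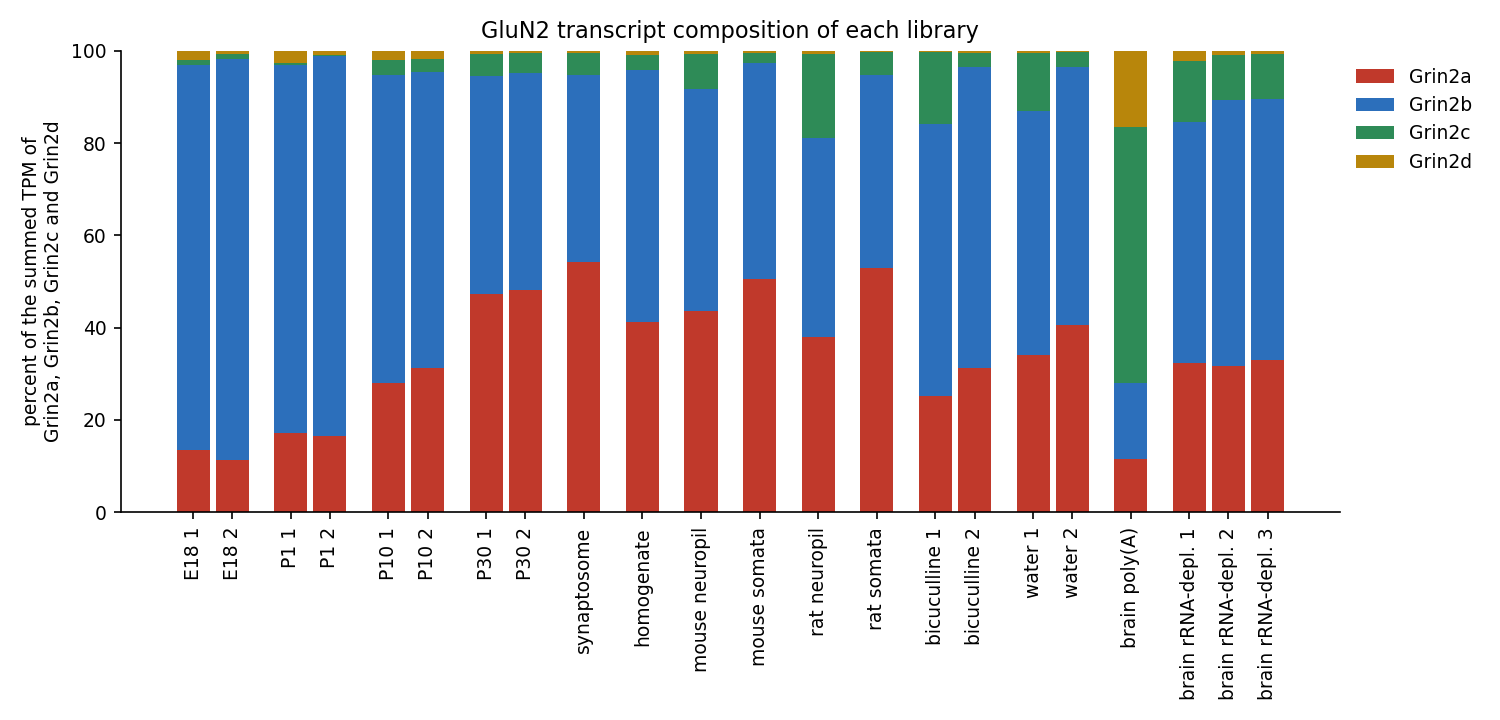
Share of Grin2a, Grin2b, Grin2c and Grin2d in their summed TPM (y axis, percent), 1 bar per library, for hippocampal stages, single-library fractions, rat cultures and whole brain. The Grin2a share was 13.5% and 11.4% at E18 and 47.4% and 48.2% at P30, and the poly(A) brain library was the only one shown in which Grin2c took over 50% (55.4%).

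Genes that act with the receptor were read from 5 lists (57 genes: scaffolds, kinases and phosphatases, trafficking partners, co-agonist and glutamate supply, and transcriptional regulators of subunit genes). In P30 against E18, 35 of the 54 tested were higher and 11 lower, beside 29.5% of all genes higher and 26.8% lower. Their median difference was 1.19, beside 0.01 for all genes. Of 13 scaffolds, which hold the receptor at the postsynaptic density, 12 were higher and 1, Dlgap4, was lower. All 9 called of the 12 kinases and phosphatases tested were higher. The regulators went the other way, with 7 of 8 lower. The largest increases were those of Camk2a, the calcium-activated kinase that binds GluN2B (5.83 ± 0.19, adjusted p = 8.38e-08), Ptk2b, a kinase upstream of Src (5.71 ± 0.17, 7.5e-08), and Slc1a2, the astrocyte glutamate transporter (3.57 ± 0.15, 2.14e-07). The largest decreases were those of Ezh2, a Polycomb histone methyltransferase (−2.51 ± 0.14, 7.89e-07), Ephb2, a receptor tyrosine kinase that binds GluN1 (−1.67 ± 0.21, 0.000119), and Lin7c, an adaptor for receptor transport (−1.12 ± 0.13, 7.66e-05).

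From P1 to P10, 25 of the 54 were higher and 7 lower, beside 17.2% of all genes higher and 18% lower. Nefl, a neurofilament protein that binds GluN1 (3.03 ± 0.31, adjusted p = 0.000158), Lin7b (2.67 ± 0.20, 3.07e-05) and Ptk2b (2.53 ± 0.17, 2.51e-05) increased most. Ezh2 (−1.78 ± 0.14, 3.87e-05), Sp1, a general transcription factor (−0.87 ± 0.27, 0.0337), and Rest, the repressor of neuronal genes (−0.78 ± 0.19, 0.0112), decreased most. From P10 to P30, 18 were higher and 5 lower, beside 17% of all genes higher and 12.5% lower. No list member passed from E18 to P1, where 1.2% of all genes were higher and 0.524% lower.

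The tissue comparison asks which transcripts mark the brain. Except Grin3b, all subunits were higher in brain than in the mean of heart, liver, lung and testis, Grin1, Grin2a and Grin2b by over 6 on the log2 scale. Brain libraries are given in the order 14 weeks, then both of 20 weeks.

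Grin1 had 208, 67.2 and 78.6 TPM in brain, against 0 to 1.01 TPM (median 0.355) in the 12 libraries of other tissues. The 14-week brain library stood well above both of 20 weeks. Grin1 was 6.27 ± 0.29 higher in brain (log2, SE; adjusted p = 1.9e-10). Grin2a had 106, 74.7 and 84.7 TPM, against 0 to 0.346 TPM elsewhere (6.26 ± 0.12, 2.77e-14). Grin1 and Grin2a passed the filter of 1 TPM in at least 3 libraries only through brain, so they could only come out higher. Grin2b had 171, 135 and 146 TPM, against 0 to 12.4 TPM elsewhere (6.39 ± 0.22, 6.39e-12).

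The highest non-brain values of Grin2b were all in testis, at 4.92, 12.4 and 4.51 TPM, whereas heart, liver and lung did not exceed 0.309 TPM. Grin2d had 7.60, 2.07 and 1.62 TPM in brain and 3.52, 3.41 and 3.56 TPM in testis, so both 20-week brain libraries were below testis. Its difference from the mean of the 4 tissues was 1.20 ± 0.26 (adjusted p = 0.000803). Grin2c (42.5, 23.3 and 25.3 TPM in brain, at most 1.07 elsewhere) and Grin3a (31.8, 22.8 and 22.6 TPM in brain, at most 1.98, in lung) did not overlap between brain and the other tissues. They were higher in brain by 4.57 ± 0.16 (adjusted p = 8.91e-12) and 3.83 ± 0.16 (6.27e-11).

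Grin3b had 0.681, 0.356 and 0.921 TPM in brain and 2.30, 2.78 and 2.12 TPM in testis, its highest tissue. It did not pass against the mean of the others (−0.15 ± 0.17, adjusted p = 0.425). The 6 higher members stood beside 45.4% of 18966 genes higher and 28% lower. Of these members, Grin1, Grin2a and Grin2c passed the filter only through the brain libraries, so they could only come out higher. The calls of these genes thus add nothing to their TPM values. Scaling the libraries to a common median of ratios moved the median difference of all genes to −0.22, against 0.34 as deposited, and the share of higher calls to 41.6% of calls, against 61.9%; the 6 members remained higher, and Grin3b then passed as lower (−0.39, adjusted p = 0.0416).

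Within brain, Grin2b was the highest GluN2 gene in all 3 libraries, at 52.4%, 57.5% and 56.6% of the GluN2 sum, followed by Grin2a at 32.3%, 31.8% and 32.9%. These 2 ranges were apart from each other and from Grin2c (13.0%, 9.88% and 9.81%). In testis the order was Grin2b (55.1%, 77.4% and 52.4%), then Grin2d (39.5%, 21.2% and 41.3%), with Grin1 at no more than 0.0381 TPM per TPM of GluN2. Of the companion genes, 51 of 55 tested were higher in brain and 3 lower, beside 45.4% of all genes higher and 28% lower. Nefl (8.58 ± 0.15, adjusted p = 1.47e-14), Camk2a (6.45 ± 0.23, 8.76e-12) and Dlgap1, a scaffold (6.39 ± 0.22, 6.74e-12), had the largest positive differences. Rest (−1.59 ± 0.20, 7.71e-06), Sp1 (−0.56 ± 0.22, 0.033) and Actn2, an actin crosslinker that binds GluN1 (−0.49 ± 0.20, 0.0377), were lower.

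**Figure D3:**
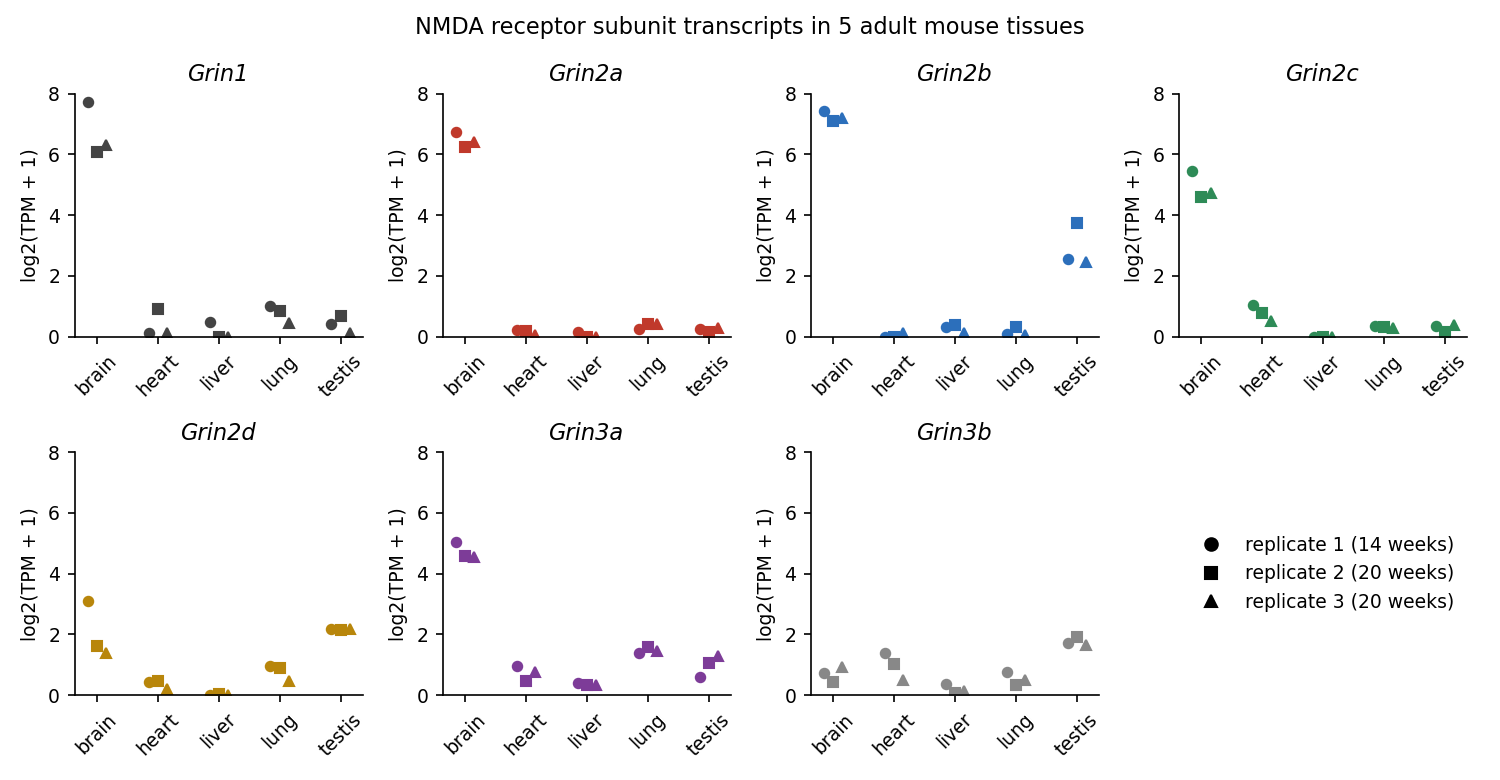
log2(TPM + 1) of each subunit gene in brain, heart, liver, lung and testis (x axis), 1 point per library with marker shape for replicate and age. Grin2b reached 12.4 TPM and Grin2d 3.56 TPM in testis, where Grin3b was also highest (2.78 TPM).

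Genes whose pattern was most like that of each member were ranked over the 27 rRNA-depleted mouse libraries by Pearson's r of log2(TPM + 1), among 17588 genes with a mean of at least 1 TPM; the libraries share the contrast of brain with other organs, and genes are not independent. Grin1 was most like Tnr, Galnt9 and Fbxl16 (r = 0.993, 0.993 and 0.992). Grin2a was most like Sorcs3, Tnr and Chrm1 (0.993, 0.993 and 0.992), and Grin2b had Nell2 and Hs3st4 among its 3 most alike (0.993 and 0.991). Those of Grin2c included S100b and Mobp (0.977 and 0.977). The most alike were for Grin2d Mas1, Mypop and Scamp1 (0.920, 0.916 and 0.915), and for Grin3a Xkr4, Gpr176 and Scg3 (0.987, 0.985 and 0.985). Grin3b had a mean below 1 TPM. Over the 8 hippocampal libraries, where age alone separates the samples, Grin2a was most like Sesn3, Isca1 and Kcna2 (0.998, 0.998 and 0.997) and Grin2b like Ero1l, Cdc42bpa and Exph5 (0.996, 0.994 and 0.994).

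The compartment libraries ask which transcripts are carried into synapses and dendrites. There was 1 library per compartment, so differences have no replicate check, and a 2-fold ratio among genes of at least 1 TPM in either library was used as a description. For scale, 3.79% to 6.57% of genes differed by 2-fold between the 2 libraries of a hippocampal stage, and 6.45% and 8.43% between those of the rat cultures with bicuculline and with water.

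Synaptosomes, sealed pinched-off nerve terminals with attached postsynaptic membrane, held more of all 6 subunit transcripts that reached 1 TPM. Grin2a had 459 TPM in synaptosomes and 184 TPM in homogenate (2.49-fold), and Grin2c 40.6 and 14.6 TPM (2.78-fold). The median gene ratio was 0.815; after scaling by it, Grin1 too was past 2-fold (2.03). As deposited, Grin1 had 285 and 173 TPM (1.65-fold) and Grin2b 343 and 244 TPM (1.41-fold). The 2 members past 2-fold stood beside 7.64% of genes 2-fold higher and 19.4% 2-fold lower in synaptosomes (1135 and 2888 of 14854 genes, and 1827 and 1667 after that scaling). Grin2a made up 54.2% of the GluN2 sum in synaptosomes and 41.3% in homogenate, Grin2b 40.5% and 54.6%. Grin3a had 31.3 and 23.6 TPM and Grin2d 4.71 and 3.66 TPM. Marker RNAs differed too. Gfap had 1004 TPM in synaptosomes and 218 TPM in homogenate, and the summed astrocyte markers 1468 and 450. Malat1, a nuclear RNA, had 524 and 4800. Dendritic RNA markers, such as Camk2a (3 of 4 measured in mouse), summed to 3225 and 1354, while the neuron markers summed to 1837 and 3911. Their part in the Grin2a and Grin2c ratios was not tested.

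CA1 neuropil, the layer of dendrites, axons and glia, held less of Grin1, Grin2a and Grin2b than the layer of cell bodies in both species, and more Grin2c. In mouse, Grin1 had 105 TPM in neuropil and 161 TPM in somata (a ratio of 0.654), Grin2a 174 and 283 (0.615), and Grin2b 191 and 261 (0.734). In rat, Grin1 had 93.9 and 160 TPM (0.585), Grin2a 140 and 297 (0.472), and Grin2b 160 and 235 (0.680). All 6 ratios were below 1, and that of Grin2a in rat was past 2-fold. The neuron markers summed to 2251 TPM in neuropil and 2690 TPM in somata in mouse (1 of 5 at 0 TPM), and 2603 and 3948 in rat (all 5 above 0). Dendritic RNA markers went the other way, at 4013 and 2288 TPM in mouse (3 of 4 measured) and 5818 and 3499 in rat. Nuclear or somatic RNA markers, such as Malat1, were similar in mouse, at 10583 and 10431 TPM. Only 1 of 3 was measured in rat (58.0 and 91.0 TPM). The part of all these markers in the subunit ratios was not tested.

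Grin2c had 30.7 TPM in neuropil and 12.9 TPM in somata in mouse (2.37-fold), and 66.8 and 28.7 TPM in rat (2.33-fold). Grin2d had 2.73 and 2.22 TPM in mouse and 2.54 and 1.28 TPM in rat, and Grin3a 25.2 and 26.7 TPM in mouse and 13.0 and 17.1 TPM in rat. Grin2c was thus past 2-fold higher in both species, where 13.3% of mouse and 13.6% of rat genes were 2-fold higher in neuropil, and 2.07% and 2.38% were 2-fold lower. The summed astrocyte markers moved with it, at 1163 TPM in neuropil and 357 TPM in somata in mouse, and 2960 and 1149 in rat; all 4 were above 0 in each of these libraries. Their part in the Grin2c ratio was not tested. Grin2a took 43.6% of the GluN2 sum in mouse neuropil and 50.6% in somata, and 37.9% and 52.8% in rat.

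The libraries that differ in RNA selection are the 14-week brain pair. Grin2a had 10.4 TPM in the poly(A) library and 106 TPM in the rRNA-depleted one (10.1-fold lower), and Grin2b 15.1 and 171 TPM (11.3-fold lower). Grin1 had 355 and 208 TPM (1.71-fold), Grin2c 50.5 and 42.5 TPM (1.19-fold), and Grin2d 15.1 and 7.60 TPM (1.98-fold), so the subunits differed in direction; after scaling both libraries to a common median of ratios, the ratios of Grin1, Grin2d and Grin3a were 2.05, 2.38 and 0.553. Grin3a had 14.7 and 31.8 TPM (2.17-fold lower). These 3 lower members stood beside 20.3% of genes 2-fold lower and 11.1% 2-fold higher in the poly(A) library (3171 and 1727 of 15595 genes, and 2090 and 2485 after that scaling). Grin2a and Grin2b were lower by similar factors, so Grin2a was 40.9% of their sum in the poly(A) library and 38.1% in the rRNA-depleted one, whereas Grin2c took 55.4% and 13.0% of the GluN2 sum.

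**Figure D4:**
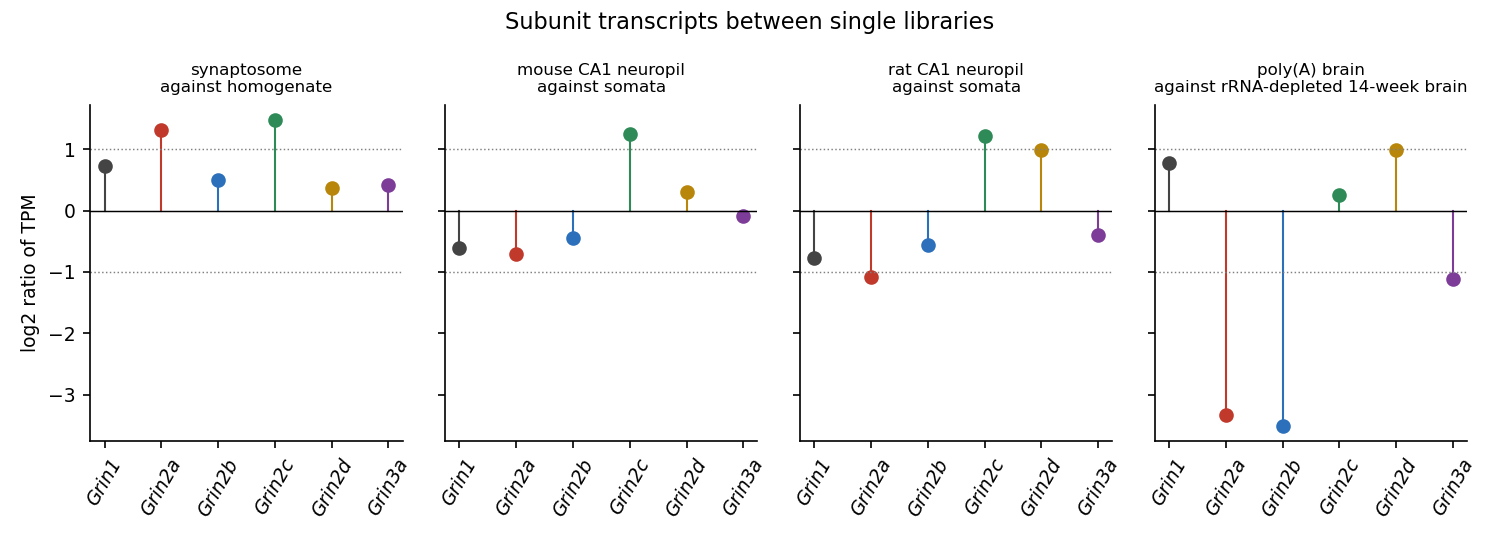
log2 ratio of TPM (y axis) for 6 subunit genes in 4 pairs of single libraries, the first-named library over the second; dotted lines mark 2-fold. Grin2a was 2.49-fold higher in synaptosomes and 10.1-fold lower in poly(A) brain, and Grin2c was over 2-fold higher in neuropil of both species.

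The culture comparison asks whether disinhibition changes subunit expression. Grin2a had 31.3 and 32.4 TPM with bicuculline, against 52.4 and 40.8 TPM with water. Both treated libraries were below both controls, but groups of 2 libraries can separate by order alone. The difference was −0.52 ± 0.17 (log2, SE), with an unadjusted p of 0.0247 and an adjusted p of 0.181 over 13341 genes, so it did not pass.

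Grin1 had 85.2 and 78.7 TPM with bicuculline, against 112 and 71.2 TPM with water (−0.13 ± 0.23, adjusted p = 0.831). Grin2b had 73.1 and 67.5 TPM, against 81.6 and 55.8 TPM (0.06 ± 0.21, 0.920), and Grin3a 9.44 and 8.23, against 12.3 and 7.62 TPM (−0.12 ± 0.26, 0.856). In each of these 3 genes the treated values lay between the controls. Grin2c followed the replicate number: 19.2 and 3.00 TPM with bicuculline, against 19.1 and 3.26 TPM with water (−0.04 ± 1.00, 0.988). Oligodendrocyte markers, too, differed by number, summing to 119 and 265 TPM with bicuculline and 109 and 310 TPM with water. Grin3b had 0.888 and 1.86 TPM, against 1.76 and 1.25 TPM (−0.10 ± 0.33, 0.913), and Grin2d, at most 0.916 TPM, was not tested.

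None of the 6 members tested passed with limma, and Grin2a alone had an unadjusted p under 0.05, beside 2.06% of all genes higher and 0.51% lower. With a replicate block as a term, limma called 3298 genes, and Grin2a passed as lower (adjusted p = 0.00844). The labels do not say that a number marks a shared culture, so the Grin2a call depends on this choice. In the limma fit without a block, of 54 companion genes, Nefl (1.09 ± 0.15, adjusted p = 0.0358) and Dlg1, a scaffold (0.91 ± 0.13, 0.036), were higher. Lin7b (−0.999 ± 0.161, 0.0486) was lower. The share of Grin2a in Grin2a plus Grin2b was not tested, and groups of 2 libraries can separate by order alone. It was 30.0% and 32.4% with bicuculline, against 39.1% and 42.2% with water, and the groups did not overlap. Beside these, rat CA1 tissue had 46.7% in neuropil and 55.8% in somata. The cultures also held less Grin2a than CA1 tissue in TPM (31.3 to 52.4, beside 140 and 297). Their astrocyte markers summed to 4854 to 8395 TPM, beside 2960 and 1149, and their neuron markers to 2798 to 3613 TPM, beside 2603 and 3948. The part of these markers in the Grin2a values was not tested. Age, preparation and number of libraries differ between cultures and tissue, so the values only stand side by side.

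Circular RNAs came from 3 of the 7 genes in mouse: Grin2a (8 circRNAs, 192 reads over all libraries), Grin2b (12, 427 reads) and Grin3a (4, 76 reads). In rat, Grin2b had 12 (56 reads), Grin2a 7 (22 reads), and Grin1 and Grin3a 2 each (2 reads each). No circRNA of Grin2c, Grin2d or Grin3b was listed in either species, and none of Grin1 in mouse. All reads of these circRNAs were in brain-derived libraries. The other tissues had 0 of 56698 back-splice reads in 12 libraries, which allows a share of up to 0.00529%, counting error only.

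The 4 most read mouse circRNAs matched whole coding exons. Their back-splice junctions are shown because this sequence, absent from the linear mRNA, is what their reads span, together with that of Grin2a exons 4 to 8, the counterpart of the Grin2b circle. Lower case letters are the last 20 bases of the downstream exon and capitals the first 20 of the upstream exon, 5′ to 3′ on the transcript strand; positions are of mm9, all on the minus strand. Exon sequences are from GENCODE vM21 transcripts, matched by exon length, order and span, which found 11 of the 24 mouse circRNAs.

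Grin2a, coding exon 2 alone, chr16:9761484-9762076: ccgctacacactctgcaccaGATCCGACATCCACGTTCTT

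Grin2b, coding exon 2 alone, chr6:135872890-135873488: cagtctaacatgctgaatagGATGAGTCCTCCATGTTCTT

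Grin2b, coding exons 4 to 8, chr6:135722211-135730354: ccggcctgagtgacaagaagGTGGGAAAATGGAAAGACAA

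Grin2a, coding exons 4 to 8, chr16:9653489-9670003: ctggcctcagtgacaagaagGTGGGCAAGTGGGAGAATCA

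Grin3a, coding exons 2 and 3, chr4:49783291-49805904: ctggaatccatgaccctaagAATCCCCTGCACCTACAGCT

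The same positions of the paralogues Grin2a and Grin2b thus formed circles. Coding exon 2 was circular alone in both, with 593 bases in Grin2a (138 reads) and 599 in Grin2b (161 reads), and the 2 exons were identical at 66.4% of 602 positions of a global alignment. Exons 4 to 8 gave 885 bases in either gene, but 197 reads in Grin2b and 8 in Grin2a. Rat circRNAs had the same exon lengths in 5 cases, among them both single-exon circles, the exon 4 to 8 circle of Grin2b and the 2-exon circle of Grin3a. Amounts are RPM (back-splice reads scaled to library depth) as deposited.

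The exon 4 to 8 circle of Grin2b had 4.90 and 4.37 RPM at E18 (9 and 7 reads), 7.54 and 8.98 at P1, 3.46 and 4.89 at P10, and 12.2 and 11.6 at P30 (21 and 19 reads). P30 was highest and P10 overlapped E18. Its difference, P30 against E18, was 1.26 ± 0.26 on log2(RPM + 0.578), with an adjusted p of 0.0421 in limma over 14200 circRNAs. edgeR on the recovered reads gave 0.588, equal library totals 0.293, and leaving out any E18, P1 or P30 library 0.0536 to 0.306.

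The single-exon circle of Grin2b had a different course, with 8.71 and 1.25 RPM at E18, 19.1 and 15.5 at P1 (38 and 19 reads), 7.49 and 10.3 at P10, and 4.64 and 7.33 at P30. Both P1 libraries were the highest of the 8. P30 against E18 did not pass (0.64 ± 0.74, adjusted p = 0.648), and P1 was not tested. The single-exon circle of Grin2a had 1.09 and 2.50 RPM at E18, 9.04 and 6.53 at P1, 5.76 and 7.33 at P10, and 7.53 and 3.05 at P30, lowest at E18 and overlapping afterwards (1.26 ± 0.51, adjusted p = 0.248).

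The 2-exon circle of Grin3a had 0 reads in all E18 and P1 libraries, 1.73 and 1.47 RPM at P10 (3 reads each) and 1.16 and 1.83 RPM at P30 (2 and 3 reads). A value of 0 allows up to 1.63 and 1.87 RPM in the E18 libraries, so the difference was not detectable at this depth, although limma gave an adjusted p of 0.0316. The circle of exons 5 to 9 of Grin2a (chr16:9644192-9663700) had 0 reads at E18 and 3 and 2 reads at P30 (adjusted p = 0.0171). For both, edgeR gave 0.604, and both missed the threshold without either E18 library (0.109 to 0.158). These 3 calls, of 15 member circRNAs tested and all higher, stood beside 6.27% of circRNAs higher and 1.44% lower. The 2 circles with 0 reads at E18 could only come out higher, so their direction is not a result. edgeR called 5 circRNAs in all and none of these 3.

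Set against the host transcript, circles of Grin2a and Grin2b were most frequent at P1. The circRNAs of Grin2a summed to 16.9 and 30.2 RPM per 100 TPM of Grin2a at E18, 91.0 and 43.0 at P1, 15.3 and 15.6 at P10, and 7.69 and 3.09 at P30. Those of Grin2b summed to 27.3 and 11.9 at E18, 64.6 and 35.3 at P1, 13.5 and 15.6 at P10, and 11.9 and 12.7 at P30. Both P1 libraries were above all others for either gene. For Grin2a, both P30 libraries were below all earlier ones. Grin3a differed, with 4.85 and 0 at E18, 21.4 and 0 at P1, 19.4 and 6.50 at P10, and 17.2 and 12.8 at P30, from at most 12 reads a library. Over all genes, circRNA totals were 11493 and 10826 RPM at E18, 12232 and 13000 at P1, 9787 and 9556 at P10, and 17782 and 18414 at P30.

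**Figure D5:**
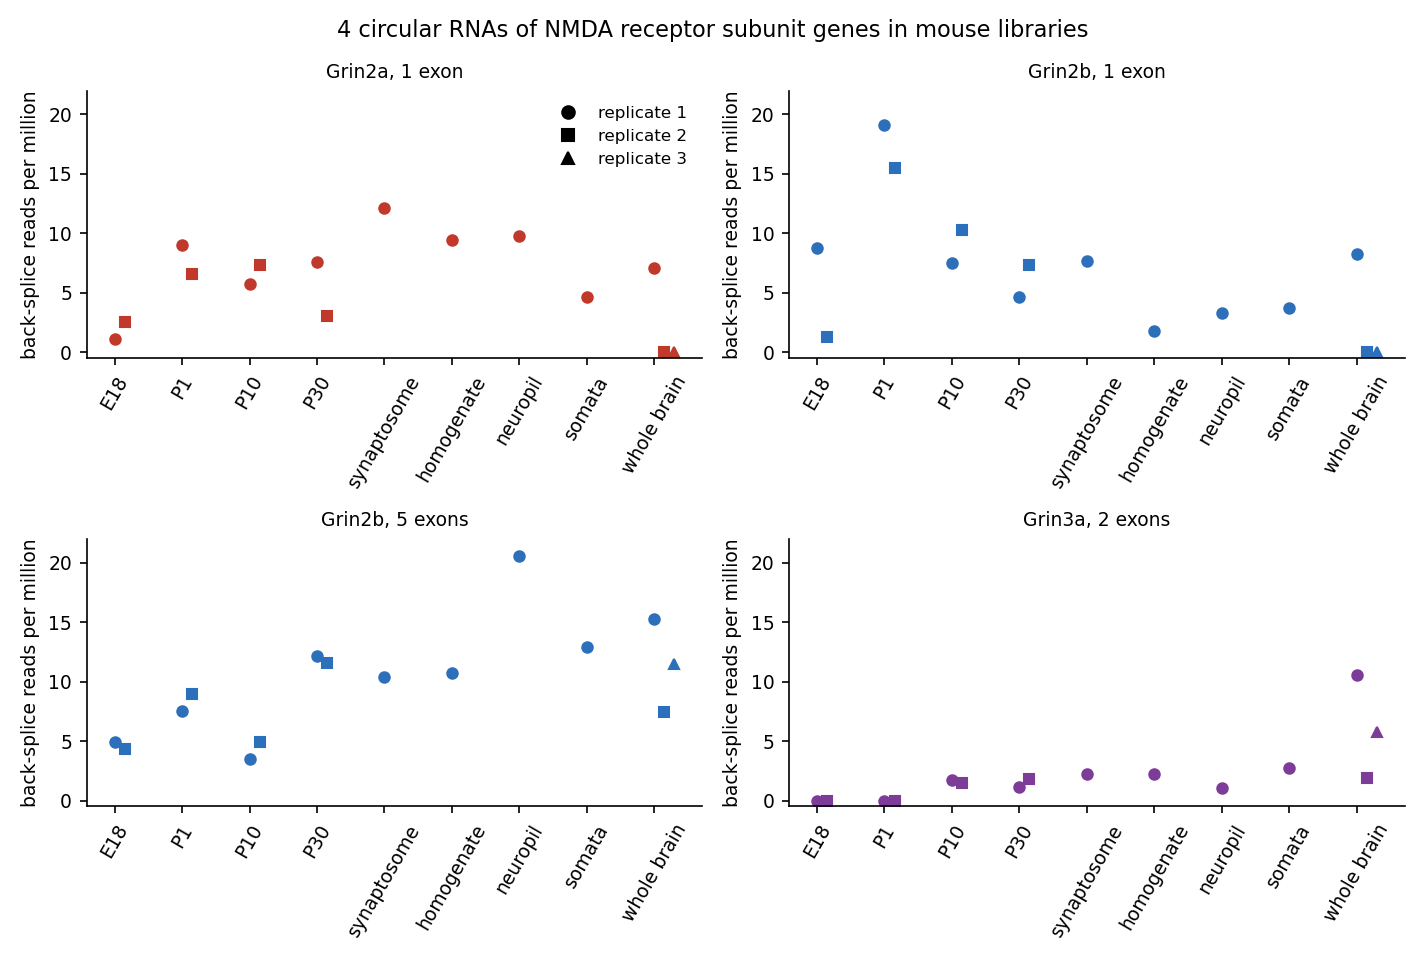
RPM of back-splice reads (y axis, linear) of 4 circRNAs in mouse hippocampal stages, synaptosomes, homogenate, CA1 neuropil, CA1 somata and whole brain (x axis); points are libraries. The single-exon circle of Grin2b was highest at P1 (19.1 and 15.5), and the exon 4 to 8 circle reached 20.6 in CA1 neuropil.

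In adult brain the exon 4 to 8 circle of Grin2b had 15.3, 7.42 and 11.5 RPM (13, 4 and 6 reads), with no read in the other tissues. It was at least 41.0-fold higher in brain, taking 3 reads over the 12 other libraries as the floor (0.278 RPM). limma gave 3.37 ± 0.19 on log2(RPM + 1.18), adjusted p = 1.8e-08. The 2-exon circle of Grin3a had 10.6, 1.85 and 5.75 RPM (9, 1 and 3 reads), at least 21.8-fold higher (2.42 ± 0.28, adjusted p = 8.45e-06). These were the 2 member circRNAs tested, beside 47.7% of circRNAs higher in brain and 2.82% lower. Both passed the filter of the fit only through the brain libraries, so they could only come out higher. Their calls thus add nothing to the read counts. Testis, with 4.51 to 12.4 TPM of Grin2b, had no read of its circRNAs, which allows up to 2.15 to 3.46 RPM per library. The poly(A) brain library had 0 of 127 back-splice reads from these genes; that allows a share of up to 2.36%, above the 0.191% of the rRNA-depleted library of that age, so no difference was detectable.

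In CA1, circRNA reads of Grin2a ran opposite to its linear transcript. They numbered 18 in mouse CA1 neuropil and 8 in somata, a ratio of 2.64 in RPM (exact 95% interval 1.09 to 7.01, counting error only). In rat they numbered 16 in neuropil and 3 in somata, a ratio of 6.91 (1.98 to 37.0). All circRNAs together had ratios of 2.05 in mouse and 2.00 in rat, inside both intervals, in rat just above the lower bound. Grin2b circRNAs had ratios of 1.70 (0.929 to 3.17) in mouse and 4.32 (1.67 to 13.1) in rat, whereas linear Grin2b was lower in neuropil in both. The rat exon 4 to 8 circle of Grin2b (rn5, chr4:233864579-233873013) had 14 reads in neuropil and 5 in somata, and the rat single-exon circle of Grin2a (chr10:4748682-4749274) 8 and 1.

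In synaptosomes, Grin2a circRNAs had 37 reads, against 25 in homogenate (a ratio of 1.81, 1.06 to 3.14), and Grin2b circRNAs 41, against 30 (1.67, 1.02 to 2.78). All circRNAs together had a ratio of 1.46, inside both intervals. The single-exon circle of Grin2b had 14 reads in synaptosomes and 4 in homogenate (4.29, 1.35 to 17.9), and its exon 4 to 8 circle 19 and 24 (0.970, 0.502 to 1.85). The ratio of 1.46 was inside the intervals of these 2 circles as well, for the single-exon circle just above the lower bound. In the cultures the exon 4 to 8 circle had 5 and 6 reads with bicuculline, against 7 and 1 with water, so the treated values lay between the controls.

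The other mouse circRNAs with at least 5 reads were sparse. Grin2a had chr16:9644192-9670003, exons 4 to 9 (21 reads), and chr16:9653489-9663700, exons 5 to 8 (7 reads). Grin2b had chr6:135682532-135691100 (28 reads), chr6:135993909-135994337 (12), chr6:135872890-135895230 (8) and chr6:135682532-135730354 (5). Grin3a had chr4:49783291-49784338, coding exon 3 alone (28 reads, 9 of them in 1 P1 library and 8 in 1 P10 library), and chr4:49715591-49732264 (7). No library held more than 9 reads of any of these. The remaining 10 mouse circRNAs had 2 to 4 reads each and the remaining 21 rat circRNAs 1 to 4.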

How the data were processed

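RNA was extracted with TRIZOL and sequenced on Illumina instruments, per the labels' protocols. Tools and builds listed in the submitters' processing notes are CASAVA 1.8.2, TopHat2 2.0.6, Cufflinks 2.2.1, mm9 and rn5; which program called circRNAs is not stated in them. The authors deposited TPM per gene, used without change. They deposited RPM per circRNA; all values were whole multiples of 1 read within a tolerance of 0.1 (100% in both species), so reads were recovered by division. A read was worth 0.448 to 2.14 RPM, and 3 reads were taken as the floor. The long-read P30 sample was not analysed here.

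limma 3.58.1 (R 4.3.3, trend, two-sided) was run on log2(TPM + 1) for genes at 1 TPM in at least 3 (tissues) or 2 libraries (hippocampus, cultures), and on log2(RPM + 1 read) for circRNAs above 0 in as many, adjusting over all features by Benjamini-Hochberg at a threshold of 0.05. edgeR 4.0.16 on recovered reads was an alternative. Tested on simulated data, the circRNA fit of the cultures made many false calls, so none of its calls is used. Pairs of single libraries were described without a test. The text names all 7 genes, circRNAs with at least 5 reads and, from the companion lists, the 3 called genes with the largest differences in each direction. Members and lists were chosen with earlier results of these data known. Some genes that this rule would name are not reported here.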

Additional observations from a re-analysis of the deposited data

How the results depend on the processing

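The calls of Grin1, Grin2a and Grin2c in P10 against P1, P30 against P10 and P30 against E18 held under all 13 alternatives. So did that of Grin2b in P30 against E18. Those of the 6 members higher in brain held under all that gave a value (18 for Grin2a, 21 for the others). Grin2a gave no value with a brain library left out, because it then missed the filter. Grin1, Grin2a and Grin2c could only come out higher in brain, so their unchanged calls there are no further check. The same is true of Grin2c in P10 against P1 and P30 against E18. Alternatives for single genes and circRNAs gave the same call in 630 cases, a lost one in 38, a gained one in 11 and a changed sign in 16. Few reads limit what the circRNA comparisons can show.

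Counts of genes called moved in P1 against E18 (267) to 17 without a filter and 19 to 153 with 1 library left out, in P10 against P1 (5437) to 2794 to 5178, in P30 against P10 (4561) to 2219 to 5126, and with bicuculline (343) to 78 without a filter and 33 to 598. Members called in P30 against P10 (5) were 3 without a filter and 3 to 5 with 1 library left out. CircRNAs called in brain (2827) were 654 with at least 20 reads, 1010 with equal totals, 1589 with edgeR and 1576 to 2672 with 1 library left out. In P30 against E18 (1095) they were 500 with at least 20 reads, 5 with edgeR and 0 to 1061. In the cultures they were 1 with at least 20 reads, 0 with equal totals, 0 with edgeR (39 at an unadjusted p under 0.05) and 0 to 0 with 1 library left out. The cause was not tested.

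Same-numbered hippocampal libraries deviated together with r of 0.055 to 0.351 and culture libraries with 0.588. The labels do not say that a number marks a shared animal or culture, and the main fits have no replicate block. With a replicate block, 657 genes were called in P1 against E18, 5 members in P10 against P1, and 3298 genes and 1 member, Grin2a (adjusted p = 0.00844), with bicuculline.

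With 1 library left out, log2 differences with a changed sign ranged as follows. In P1 against E18, Grin2d ran from -0.042 to 0.63 and Grin2b from -0.32 to 0.47. With bicuculline, Grin1 ran from -0.45 to 0.20, Grin2b from -0.21 to 0.33, Grin2c from -1.21 to 1.12, Grin3a from -0.44 to 0.19, Grin3b from -0.40 to 0.20, and the rat exon 4 to 8 circle of Grin2b from -0.50 to 1.58. Grin2c was 0.022 with median-of-ratios scaling. In P30 against E18, the Grin2b circle chr6:135682532-135691100 ran from -0.22 to 0.97 and was -0.11 with equal totals and -0.070 with edgeR, and the single-exon circle of Grin2b ran from -0.53 to 1.81 and was -0.18 with edgeR. None of these passed the threshold.

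With all 7 genes as the denominator, mean shares of Grin2a were 8.59% (E18), 10.4% (P1), 18.3% (P10), 34.3% (P30), 15.6% (bicuculline), 20.6% (water) and 21.7% (brain), and those of Grin2b 58.6%, 50.4%, 40.4%, 33.8%, 34.2%, 30.0% and 37.4% in that order. After median scaling, the ratio of Grin1 was 2.03 in synaptosomes, and in the poly(A) library those of Grin1, Grin2d and Grin3a were 2.05, 2.38 and 0.553.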
